A study of Mus musculus with 9 samples.

Results

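The messenger RNAs of 10 enzymes of purine de novo synthesis and of its branch from IMP to GMP were described in RAW264.7 cells, a mouse macrophage line that forms osteoclasts, the bone-resorbing cells, when given RANKL. The enzymes were Prps1, Ppat, Gart, Pfas, Paics, Adsl, Atic, Impdh1, Impdh2 and Gmps, taken by gene symbol from a deposited table of 56691 genes. All 10 were found once each and all 10 passed the filter on low values. Cad and Umps, 2 enzymes of pyrimidine de novo synthesis, were read beside them as a reference. RNA was collected after 3 days from untreated control cells, from cells given RANKL, and from cells given RANKL together with uridine (UD), with 3 biological replicates per group per the labels. The paper's methods give 50 ng/mL RANKL and harvest at 72 h, and the UD concentration of these libraries is not given in the sources used here. All groups are the same unmodified immortalized line, cultured without bone or stromal cells.

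Purine de novo synthesis builds the purine ring stepwise on an activated ribose phosphate, phosphoribosyl pyrophosphate (PRPP), and ends at inosine monophosphate (IMP), from which AMP and GMP are made. Dividing cells depend on the pathway for the nucleotides of RNA and DNA, and pyrimidine synthesis draws on the same PRPP. Its genes are known in other cell types as targets of MYC, which binds the E-box CACGTG.

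RefSeq promoter windows (build GRCm38.p6, 250 bases before to 50 bases after the transcription start) were found for 9 of the 10 purine enzymes, all but Pfas. The canonical E-box, CACGTG, which reads the same on both strands, lay in the windows of 3 of these 9 genes and in those of 8.09% of 27025 genes in the same table. The 3 matches, in Atic, Impdh2 and Paics, are shown in 30 bases of context. Atic and Impdh2 rose with UD, and Paics, the most abundant member, was not called there. Prps1, Ppat, Gart and Gmps, which also rose with UD, held no CACGTG in their windows, and neither did Adsl and Impdh1. The capitals mark the E-box.
Atic, chr1:71557137-71557166, plus strand: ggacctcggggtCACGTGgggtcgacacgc
Impdh2, chr9:108560314-108560343, plus strand: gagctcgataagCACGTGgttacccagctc
Paics, chr5:76951087-76951116, plus strand: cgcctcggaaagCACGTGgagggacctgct
The E-box began at position -7 in Atic, -110 in Impdh2 and -203 in Paics, counted from the annotated start. The Paics E-box lies inside an annotated exon of Ppat, which is transcribed from the opposite strand of the same locus. The CRE, TGACGTCA, and the palindromic NRF1 motif, also searched on both strands, were in 0 of the 9 members' windows, and in 2.03% and 1.07% of all genes. Umps held a CRE at position 4. These matches describe letters in a window and no binding was measured.

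The members are spread over the genome, with Ppat and Paics the one adjacent pair. In the coordinates of the deposited table, whose build is not settled, Prps1 (ENSMUSG00000031432) lies on the plus strand of chromosome X from 139357362 to 139376889, and Gart (ENSMUSG00000022962) on the minus strand of chromosome 16 from 91418074 to 91443840. Atic (ENSMUSG00000026192) lies on the plus strand of chromosome 1 from 71596309 to 71618790, and Impdh2 (ENSMUSG00000062867) on the plus strand of chromosome 9 from 108437485 to 108442783. Their values, as those of all members, cover the exons of the whole gene.

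Total counts ranged from 15951800 to 19746862 over the 9 libraries. For the tested genes, log2 CPM is counts scaled to the library total adjusted by TMM, a scaling factor between libraries. It correlated at 0.989 to 0.993 between libraries of a group and 0.931 to 0.982 between groups. No library stood apart from its group. The 8 osteoclast markers summed to 57.5 to 60.2 FPKM in control, 2713.5 to 2918 FPKM in RANKL and 1723 to 1760.0 FPKM in UD + RANKL libraries. The 6 macrophage markers summed to 8872 to 9460 FPKM, 2370 to 2600.1 FPKM and 2069 to 2197 FPKM in the same order. Lyz2 had the largest part of these sums, with means of 8000, 1431 and 1285 FPKM. The markers did not all move alike. Cd68, unlike the 5 others, rose with RANKL, with means of 549, 782 and 643 FPKM. Adgre1, unlike the 5 others, was higher with UD than with RANKL alone, with means of 59.4, 10.1 and 12.6 FPKM. The 10 markers of fibroblasts or osteoblasts, T cells and B cells were all under 1 FPKM in every library, with Cd3e, Cd8a and Ms4a1 at 0. In bulk RNA, a change in the share of cells that express a gene and a change in RNA per cell cannot be told apart.

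FPKM (counts scaled by exonic length and by the total of the library) is used here for levels, so that genes can be compared per length. In all 3 groups Paics, which carries the carboxylase and SAICAR synthetase steps, was the highest of the 10 enzymes, at 128 ± 1.71 FPKM in control, 114 ± 3.57 FPKM in RANKL and 129 ± 2.97 FPKM in UD + RANKL cells (SD, n = 3). Impdh2 came next, then Prps1, and no library of either overlapped with its neighbours in that order. Adsl and Pfas were the lowest in each group, with Pfas at 7.45 ± 0.566, 5.34 ± 0.695 and 7.47 ± 0.410 FPKM. Between these ends the order was less settled: in control cells Ppat, Atic and Impdh1 lay at 15.1, 15.1 and 15.0 FPKM with overlapping libraries. In UD + RANKL cells Impdh1 had moved to the tenth place of the 12 genes, below Atic, Umps, Ppat, Gmps and Cad, though its libraries overlapped with those of Cad.

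The summed level of the 10 enzymes was 300.5, 299.1 and 305.0 FPKM in the control, 264.7, 270.8 and 281.1 FPKM in the RANKL, and 324.8, 335.1 and 340.4 FPKM in the UD + RANKL libraries. As deposited, the sums of the 3 groups did not overlap, with RANKL lowest and UD + RANKL highest. Divided by the TMM scaling factor of each library, an alternative added after seeing the data, the sums were 291.5 to 298.7 in control, 276.1 to 292.8 in RANKL and 320.4 to 333.5 in UD + RANKL libraries, so control and RANKL then overlapped while UD + RANKL stayed above both. Paics made up 41.3% to 43.2% of the sum in control and RANKL libraries and 38.6% to 38.9% in UD + RANKL libraries.

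**Figure D1:**
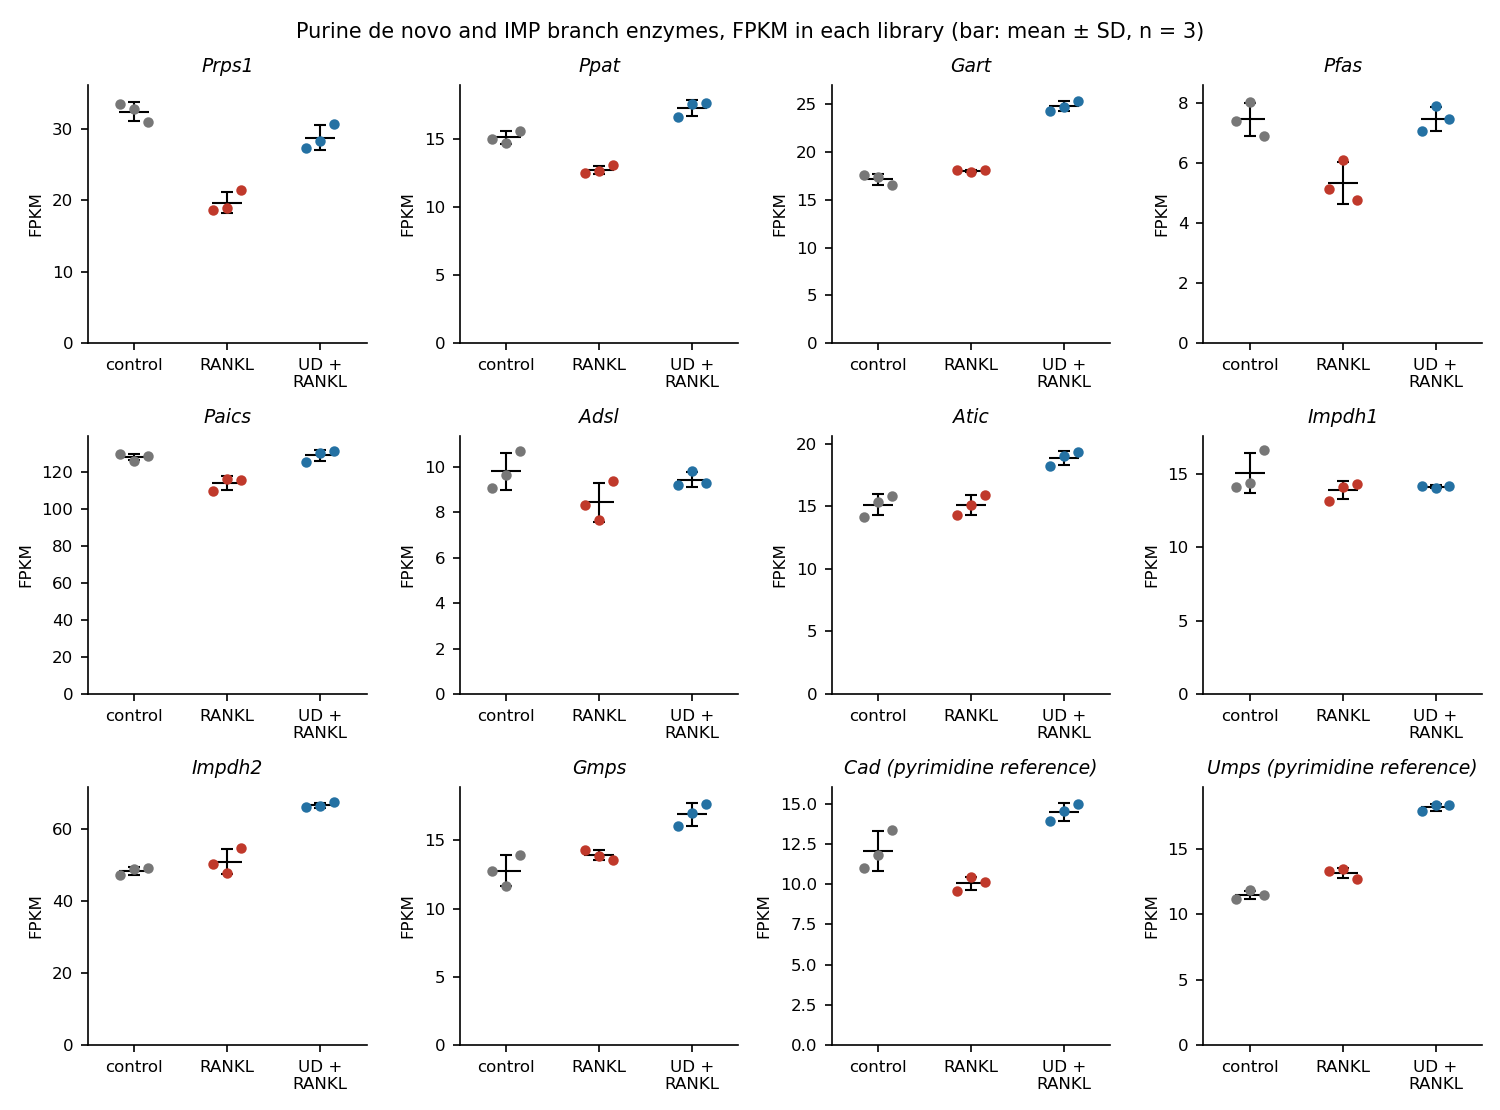
FPKM (vertical axis, from 0) of the 10 purine enzymes and of Cad and Umps in each of the 3 control, 3 RANKL and 3 UD + RANKL libraries; points are libraries and bars are the mean ± SD. All but Prps1, Adsl and Impdh1 had their highest means in UD + RANKL cells, Pfas and Paics by less than 1 SD over control, while Prps1 stayed below its control libraries there.

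The first comparison asked how the enzymes differed after RANKL-induced osteoclast differentiation. Of the 10, 3 were lower (Prps1, Ppat and Pfas), 3 were higher (Gart, Impdh2 and Gmps) and 4 did not pass the test. The threshold was an adjusted p under 0.05 in edgeR's quasi-likelihood test over all 11995 genes tested, by which 30.2% of all genes were lower and 27.3% higher, so neither count of members was far from that of genes at large. The median log2 fold change was -0.05 over the 10 enzymes and -0.027 over all genes tested.

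Prps1, a PRPP synthetase, was at 33.5, 32.8 and 30.9 FPKM in the control libraries and at 18.61, 18.98 and 21.40 FPKM in the RANKL libraries. These groups lay far apart, and Prps1 fell by 0.63 on the log2 scale (SE 0.071, edgeR adjusted p = 1.47e-07). With the counts of its similar copy Prps1l3 (93.2% identity) added, as described further on, the log2 fold change of the pair was -0.29, smaller in size than that of Pfas. Pfas, the FGAM synthase, had 7.41, 8.04 and 6.91 FPKM in control and 5.15, 6.11 and 4.76 FPKM in RANKL libraries, and fell by 0.39 (SE 0.083, edgeR adjusted p = 0.000346). Ppat, the amidotransferase that commits PRPP to the pathway, was at 15.1, 14.7 and 15.6 FPKM in control and 12.5, 12.7 and 13.1 FPKM in RANKL libraries. Its fall was smaller, by 0.16 (SE 0.058, edgeR adjusted p = 0.0251), without overlap of the libraries, and the call was lost in DESeq2 (adjusted p = 0.0596), without the filter on low values, in a fit of the 6 libraries alone, and without control replicate 1 or 3 or RANKL replicate 1 or 2 (edgeR adjusted p of 0.0525 to 0.0698 without these libraries).

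The 3 higher members carried small changes that depended on the scaling between libraries. Gart, a single protein for 3 of the ring-building steps, rose by 0.16 on the log2 scale (SE 0.051, edgeR adjusted p = 0.0115), from 17.6, 17.3 and 16.5 FPKM in control to 18.1, 17.9 and 18.1 FPKM in RANKL libraries. Impdh2 (log2 fold change 0.16, SE 0.052, edgeR adjusted p = 0.0121) and Gmps (0.21, SE 0.061, edgeR adjusted p = 0.00559), which together take IMP to GMP, were also called higher, but the FPKM of their control and RANKL libraries overlapped. The Impdh2 call was lost without RANKL replicate 3 (log2 fold change 0.11, edgeR adjusted p = 0.0624) and the Gmps call without control replicate 2 (0.15, edgeR adjusted p = 0.0583). Scaled by total counts alone, none of the 3 was called higher and 5 members were called lower, Paics and Adsl among them, and 36.8% of all called genes were higher, compared with 47.5% under TMM. FPKM carries no TMM factor, and these factors were 0.959 to 0.962 in RANKL and 1.01 to 1.03 in the other libraries, so FPKM ratios of RANKL to the other groups run below the fitted fold changes.

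Paics, Adsl, Atic and Impdh1 did not pass the test. Paics was at 129.7, 126.4 and 128.8 FPKM in control and 110.1, 116.6 and 116.0 FPKM in RANKL libraries, with no overlap, yet its log2 fold change was -0.08 with a 95% interval of -0.17 to 0.01 (edgeR adjusted p = 0.131). Adsl, adenylosuccinate lyase, which acts both before IMP and on the way to AMP, had a log2 fold change of -0.13 (95% interval -0.29 to 0.04), and passed without RANKL replicate 3 (-0.21, edgeR adjusted p = 0.0342). Atic, which carries the last 2 steps to IMP, had 0.09 (95% interval -0.02 to 0.20). In FPKM, 4 members had all RANKL libraries below all control libraries and 1 had them above, against 38.8% and 22.9% of all genes tested. Of the reference enzymes, Cad, which starts pyrimidine synthesis, fell by 0.17 (SE 0.064, edgeR adjusted p = 0.0251), a call lost without control replicate 3 (-0.09, edgeR adjusted p = 0.177) or RANKL replicate 1 (-0.14, edgeR adjusted p = 0.0989), in a fit of the 6 libraries alone (edgeR adjusted p = 0.0767) and in DESeq2 (adjusted p = 0.0518), and Umps, which ends it at UMP, rose by 0.28 (SE 0.064, edgeR adjusted p = 0.000752).

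The second comparison asked what UD changed in RANKL-treated cells. Of the 10 enzymes 7 were higher with UD and 0 were lower, against 18.6% of all genes tested that were higher and 20.2% that were lower. The 7 were Prps1, Ppat, Gart, Pfas, Atic, Impdh2 and Gmps, with fold changes of 1.14 to 1.38. The median log2 fold change was 0.27 over the 10 members and 0.005 over all genes tested. By total counts without TMM scaling these medians were 0.35 and 0.09, and 66.2% of all called genes were higher, compared with 48.0% under TMM. In FPKM, 8 members had every UD + RANKL library above every RANKL library, as did 34.1% of all genes, and 0 had them below, as did 17.6%.

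Among the early steps, Prps1 was at 27.3, 28.4 and 30.7 FPKM in the UD + RANKL libraries, above the highest RANKL library at 21.4 FPKM. It rose by 0.46 on the log2 scale (SE 0.072, edgeR adjusted p = 2.86e-05). Ppat was at 16.6, 17.6 and 17.7 FPKM with UD, and rose by 0.35 (SE 0.058, edgeR adjusted p = 5.49e-05). All 3 of its values also exceeded the highest control library, at 15.6 FPKM. Gart had 24.3, 24.7 and 25.4 FPKM with UD and no more than 18.1 FPKM in any other library. Its log2 fold change was 0.37 (SE 0.050, edgeR adjusted p = 5.13e-06), the smallest adjusted p of the 10. Pfas had 7.07, 7.89 and 7.46 FPKM, within the control range, and rose by 0.40 over RANKL (SE 0.083, edgeR adjusted p = 0.000655).

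In the later steps, Atic was at 14.2, 15.3 and 15.8 FPKM in control, 14.3, 15.1 and 15.9 FPKM in RANKL and 18.26, 18.99 and 19.35 FPKM in UD + RANKL libraries. Control and RANKL overlapped almost entirely while the UD libraries lay above both. Its log2 fold change over RANKL was 0.23 (SE 0.054, edgeR adjusted p = 0.00182). Impdh2, the IMP dehydrogenase isoform typical of dividing cells, was at 47.1, 48.8 and 49.2 FPKM in control, 50.1, 47.8 and 54.6 FPKM in RANKL and 66.0, 66.3 and 67.3 FPKM in UD + RANKL libraries. It showed the same order and rose by 0.30 (SE 0.051, edgeR adjusted p = 8.53e-05). Gmps, GMP synthetase, was at 12.8, 11.7 and 13.9 FPKM, then 14.3, 13.9 and 13.6 FPKM, then 16.02, 17.03 and 17.67 FPKM. Its rise over RANKL, 0.20 (SE 0.060, edgeR adjusted p = 0.0137), was the smallest of the 7, and without UD + RANKL replicate 3 it was 0.16 with an adjusted p of 0.0786.

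The 3 members that did not pass were Paics, Adsl and Impdh1. Paics with UD was at 125.9, 130.4 and 131.4 FPKM, above all RANKL libraries, but its log2 fold change was 0.09 with a 95% interval that ended at 0.18 (edgeR adjusted p = 0.113). With total counts in place of TMM it was 0.18 and passed (edgeR adjusted p = 0.00303). Adsl was at 9.05, 9.64 and 10.7 FPKM in control, 8.29, 7.66 and 9.35 FPKM in RANKL and 9.20, 9.80 and 9.27 FPKM in UD + RANKL libraries, and its log2 fold change was 0.07 (95% interval -0.09 to 0.24). Impdh1, the other IMP dehydrogenase, was at 14.1, 14.4 and 16.6 FPKM, then 13.2, 14.1 and 14.3 FPKM, then 14.19, 14.03 and 14.17 FPKM. The 3 groups overlapped, with a log2 fold change of -0.06 (95% interval -0.21 to 0.09) for UD. The interval of Adsl includes a rise of the size called in Gmps, and that of Impdh1 does not but includes a fall of that size. Both reference enzymes rose, Cad by 0.44 (SE 0.064, edgeR adjusted p = 1.26e-05), from 9.59, 10.4 and 10.1 to 13.9, 14.5 and 15.0 FPKM, and Umps by 0.38 (SE 0.062, edgeR adjusted p = 5.26e-05), from 13.3, 13.5 and 12.7 to 17.9, 18.4 and 18.4 FPKM.

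**Figure D2:**
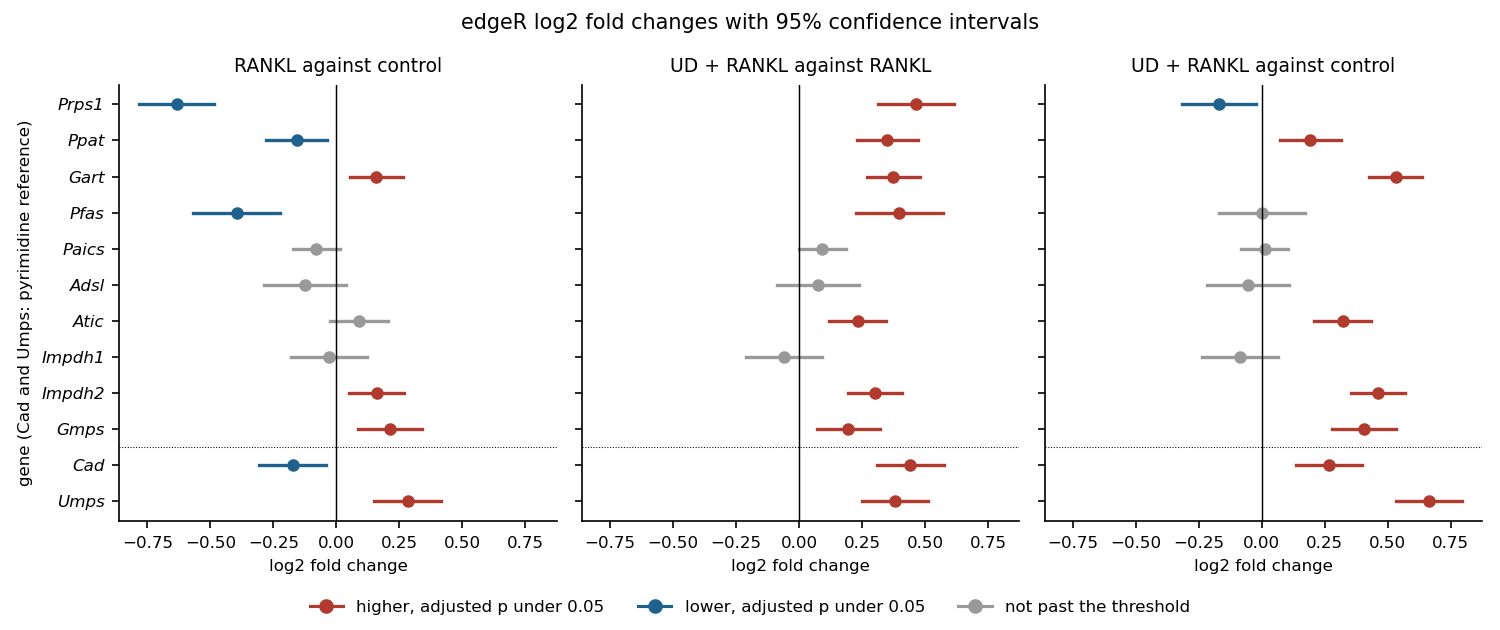
The log2 fold change (horizontal axis) of each purine enzyme and of Cad and Umps in the 3 comparisons, with bars for the 95% confidence interval of the edgeR fit and colours for calls at an adjusted p under 0.05. Of the 10 purine enzymes, 3 were higher and 3 lower in RANKL against control, and 7 were higher and 0 lower in UD + RANKL against RANKL.

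The third comparison set UD + RANKL beside untreated cells. It shares its libraries with the other 2 comparisons, so the 3 sets of fold changes are not independent. Here 5 members were higher (Ppat, Gart, Atic, Impdh2 and Gmps) against 26.7% of all genes tested, and 1 was lower (Prps1) against 27.3%. The same 5 and 1 members had libraries that did not overlap, against 29.5% of all genes above and 30.4% below. The median log2 fold change was 0.10 over the members and -0.002 over all genes tested.

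Gart stood highest over control, by 0.53 on the log2 scale (SE 0.051, edgeR adjusted p = 1.23e-08), followed by Impdh2 at 0.46 (SE 0.052, edgeR adjusted p = 1.52e-07) and Gmps at 0.41 (SE 0.061, edgeR adjusted p = 8.17e-06). Atic was higher by 0.32 (SE 0.054, edgeR adjusted p = 3.76e-05) and Ppat by 0.19 (SE 0.057, edgeR adjusted p = 0.00719). Prps1 was the one enzyme still below control, by a log2 fold change of -0.17 (SE 0.070, edgeR adjusted p = 0.0466). This call was lost in 6 of 9 other settings and without control replicate 1 or 2, RANKL replicate 2 or UD + RANKL replicate 1 or 2, with log2 fold changes of -0.17 to -0.13 (edgeR adjusted p of 0.0533 to 0.176) when these were left out. With the counts of its similar copy Prps1l3 added, the log2 fold change of the pair was 0.06 (edgeR adjusted p = 0.368). For Pfas, Paics, Adsl and Impdh1 the log2 fold changes were 0.00, 0.01, -0.05 and -0.09, and none passed. Umps was 1.58-fold and Cad 1.20-fold above control.

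Prps1 has a similar copy and Impdh2 a near-identical one. Reads could be split between gene and copy by the authors' counting, which is not given in the sources used here. How many reads of Prps1 and Prps1l3 cannot be told apart was not tested. Prps1l3, a protein-coding gene annotated in GENCODE, aligned to Prps1 over 1478 bases at 93.2% identity. It stood at 36.8 ± 2.51 FPKM in control, 34.3 ± 1.19 FPKM in RANKL and 44.0 ± 3.25 FPKM in UD + RANKL cells (SD, n = 3), and thus held 48.9% to 50.3%, 57.3% to 61.8% and 53.2% to 58.8% of the counts of the pair. Its log2 fold change in RANKL against control was -0.02, and it rose by 0.27 with UD (edgeR adjusted p = 0.00277). With both sets of counts summed, the pair was lower in RANKL by a log2 fold change of -0.29 (edgeR adjusted p = 6.37e-05), where Prps1 alone had -0.63. The pair was higher with UD by 0.35 (edgeR adjusted p = 1.87e-05), and 0.06 above control in UD + RANKL cells (edgeR adjusted p = 0.368). In the deposited counts Prps1 and Prps1l3 did not change alike, so the sum describes the pair and not Prps1 alone. The size of the change in RANKL cells, and its direction in UD + RANKL against control, thus differed between Prps1 alone and the pair.

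Impdh2-ps, a processed pseudogene, aligned to Impdh2 over 1545 bases at 99.7% identity. It was at 25.1 ± 3.23, 26.1 ± 0.692 and 33.8 ± 2.69 FPKM in the 3 groups (SD, n = 3) and held 18.9% to 22.5% of the counts of the pair in every library. Its share was alike in all groups, and Impdh2 with the copy summed kept its calls, with log2 fold changes of 0.16, 0.30 and 0.45. Ppat and Paics overlap by 272 bases at their starts on opposite strands of chromosome 5, with Ppat at 77061096 to 77099425 and Paics at 77099154 to 77115356 in the deposited table. The libraries were strand-specific, but the strand setting of the counting is not given, so reads from the shared bases could have gone to either. The UD change was 0.35 (95% interval 0.23 to 0.47) in Ppat and 0.09 in Paics, and the difference between these neighbours was not tested.

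**Figure D3:**
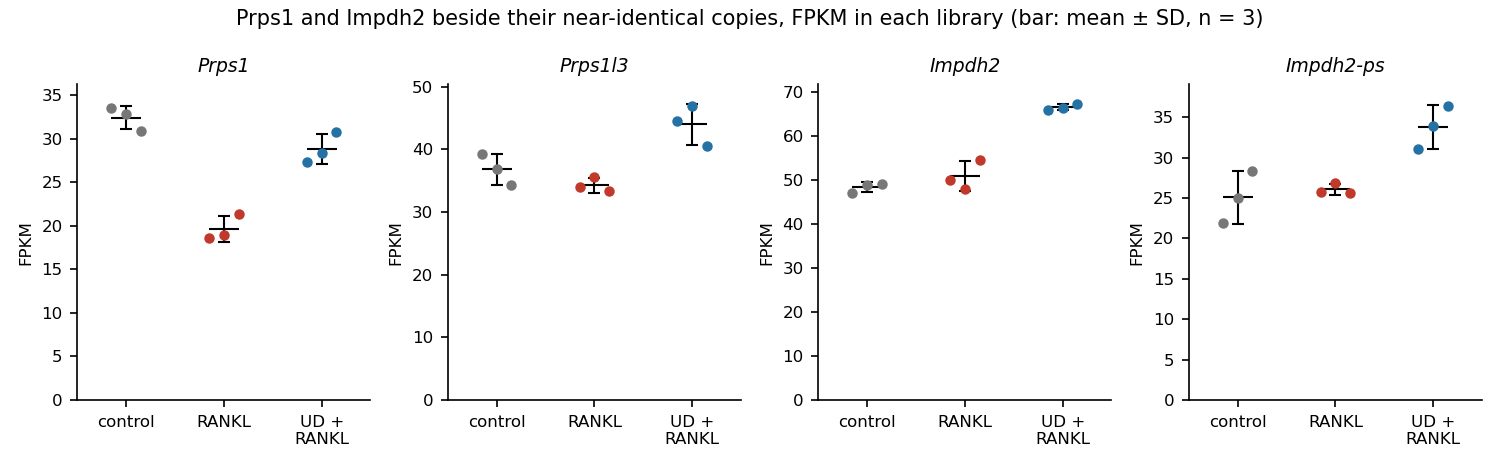
FPKM (vertical axes, from 0) of Prps1, its copy Prps1l3, Impdh2 and its pseudogene Impdh2-ps in each library of the 3 groups; points are libraries and bars are the mean ± SD. Prps1 fell from 32.4 to 19.7 FPKM on average with RANKL while Prps1l3 had 36.8 and 34.3 FPKM, and Impdh2 and Impdh2-ps were both highest with UD.

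The balance of paralogs that catalyse the same step was read as a ratio of FPKM within each library, which needs no scaling between libraries. The Impdh2 to Impdh1 ratio was 3.23 ± 0.231 in control, 3.67 ± 0.237 in RANKL and 4.71 ± 0.051 in UD + RANKL cells (SD, n = 3), so the isoform of dividing cells was the more abundant throughout and most so with UD. Differences between groups made up 91.9% of the variance of the log2 ratio, with an exact permutation p of 0.00357, the smallest that 280 divisions of the libraries allow. Pairwise, the log2 ratio differed by 0.36 between UD + RANKL and RANKL, 0.19 between RANKL and control and 0.55 between UD + RANKL and control, each with a two-sided exact permutation p of 0.1, the smallest that 3 against 3 libraries can give.

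The Prps2 to Prps1 ratio was 0.832 ± 0.051, 0.734 ± 0.1001 and 0.666 ± 0.038 in the same order (SD, n = 3). Groups made up 58.9% of its variance (exact permutation p = 0.107), and the log2 ratio differed by -0.19 between RANKL and control (two-sided exact permutation p = 0.3), -0.13 between UD + RANKL and RANKL (exact permutation p = 0.4) and -0.32 between UD + RANKL and control (exact permutation p = 0.1, the smallest possible, with no overlap of the libraries). With the copy of Prps1 summed, the differences from control were -0.53 in RANKL and -0.55 in UD + RANKL cells. Prps2, the second PRPP synthetase, had 26.9 ± 0.536, 14.3 ± 1.01 and 19.1 ± 0.051 FPKM (SD, n = 3). Prps2 fell by 0.82 on the log2 scale with RANKL (edgeR adjusted p = 1.05e-10) and rose by 0.33 with UD (edgeR adjusted p = 0.000146), and remained 0.49 below control (log2 fold change -0.49, edgeR adjusted p = 3.04e-07).

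**Figure D4:**
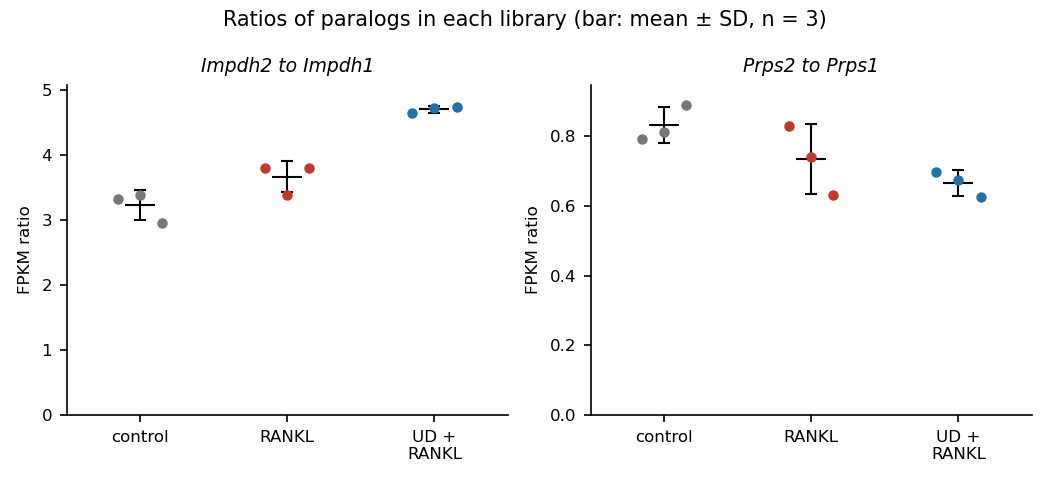
Ratio of FPKM (vertical axes, from 0) of Impdh2 to Impdh1 and of Prps2 to Prps1 in each library of the 3 groups; points are libraries and bars are the mean ± SD. The Impdh2 to Impdh1 ratio averaged 3.23, 3.67 and 4.71 without overlap between groups. Control and RANKL nearly touched, with the highest control library at 3.388 and the lowest RANKL library at 3.395. The Prps2 to Prps1 ratio overlapped between control and RANKL and between RANKL and UD + RANKL.

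Genes around the pathway were called in both directions, to be read beside the 18.6% higher and 20.2% lower of all genes tested for UD in RANKL cells and the 27.3% and 30.2% for RANKL against control. Of 9 other genes of PRPP, AMP and GMP metabolism, 1 was higher (Prps2) and 2 lower with UD in RANKL cells. The 2 lower were the adenylosuccinate synthetases, which lead IMP to AMP: Adss had a log2 fold change of -0.32 (edgeR adjusted p = 3.13e-05) and Adssl1 of -0.52 (edgeR adjusted p = 1.39e-06). On the GMP side Impdh2 and Gmps had risen, and the difference between the arms was not tested. In RANKL against control, 3 of the 9 were higher and 3 lower. Gmpr, GMP reductase, which returns GMP to IMP, was among the higher, with a log2 fold change of 1.32 (edgeR adjusted p = 2.63e-09).

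Of 7 purine salvage genes tested, which reuse bases and nucleosides, 4 were higher with UD and 1 lower, after 1 higher and 3 lower in RANKL against control. Dck, deoxycytidine kinase, which also phosphorylates purine deoxynucleosides, fell from 36.2 ± 1.45 to 13.4 ± 0.385 FPKM with RANKL and stood at 21.6 ± 1.47 FPKM with UD (SD, n = 3). Its log2 fold changes were -1.35 (edgeR adjusted p = 4.2e-14) and 0.61 (edgeR adjusted p = 1.18e-07). Hprt, the hypoxanthine salvage enzyme, did not pass in either comparison. Of 7 breakdown genes, 3 were higher and 2 lower with UD, the latter Gda (-0.47) and Xdh (-0.28), which make xanthine and uric acid.

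Among 11 genes that supply one-carbon units, glycine or amide nitrogen, 3 were higher and 4 lower with UD, beside the same 18.6% and 20.2% of all genes. Mthfd1 (0.50, edgeR adjusted p = 1.44e-06) and Shmt1 (0.72, edgeR adjusted p = 8.12e-06), cytosolic folate enzymes, were among the higher. Mthfd1l (-0.36, edgeR adjusted p = 3.97e-05) and Mthfd2 (-0.67, edgeR adjusted p = 1.62e-09), their mitochondrial counterparts, were lower, as were Phgdh (-0.53) and Psph (-0.49) of serine synthesis, whose remaining enzyme, Psat1, had 0.05 and did not pass (edgeR adjusted p = 0.439). Shmt2, the mitochondrial partner of Shmt1, had -0.11 and did not pass (edgeR adjusted p = 0.216).

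Proliferation markers moved together. In RANKL against control they went in the direction of Prps1, Ppat and Pfas. They went against that of Gart, Impdh2 and Gmps, which were called higher under TMM scaling, and 4 members did not pass. All 14 markers were lower in RANKL against control (median log2 fold change -0.60) and all 14 were higher with UD (median 0.64). The summed FPKM of the markers was 622 to 654 in control, 396 to 405 in RANKL and 625 to 649 in UD + RANKL libraries. Their part in the purine changes was not tested. Unlike the purine sum, the proliferation sums of control and UD + RANKL libraries overlapped, and 4 of the 14 were higher and 4 lower between these groups.

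The osteoclast markers went the other way, with 8 of 8 higher in RANKL against control and 8 of 8 lower with UD. Myc, the transcription factor named above, was highest in RANKL cells. It was at 0.767 ± 0.055 FPKM in control, 36.3 ± 1.14 FPKM in RANKL and 14.01 ± 0.797 FPKM in UD + RANKL cells (SD, n = 3). Its part in the levels of the purine enzymes was not tested. Atf4, a regulator of amino acid and serine synthesis genes, was also highest in RANKL cells, at 145 ± 4.53 FPKM against 114 ± 3.87 and 104 ± 3.46 FPKM in control and UD + RANKL cells (SD, n = 3). Over the 9 libraries, which share 3 groups, Atf4 had a Pearson correlation of -0.88 with the mean profile of the members and Myc one of -0.32. These are of log2(FPKM + 1), without TMM factors, and are given as descriptions only.

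**Figure D5:**
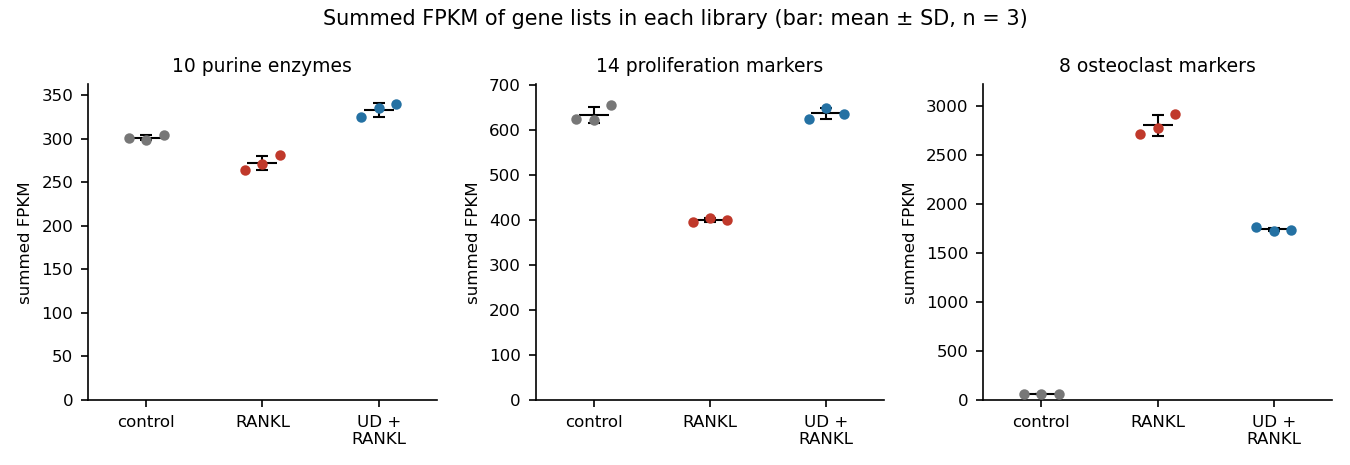
Summed FPKM (vertical axes, from 0) of the 10 purine enzymes, 14 proliferation markers and 8 osteoclast markers in each library of the 3 groups; points are libraries and bars are the mean ± SD. The purine and proliferation sums were lowest in RANKL libraries, and the osteoclast sums were highest there.

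Members followed the mean of the other 9 to different degrees over the 9 libraries. Ppat was closest, with a Pearson correlation of 0.99, followed by Paics at 0.85 and Atic at 0.80, and Impdh1 was farthest at 0.22. Cad followed the members' mean at 0.98 and Umps at 0.62. Genes of the lists used here, Cad and Umps among them, were left out of a further search for like profiles. Among the other genes tested, those most like the mean profile of the 10 were Mettl18 (0.99), Rfc2 (0.99), Stip1 (0.99), Rab1b (0.99) and Rpa1 (0.98). Rfc2, a clamp loader subunit, and Rpa1, a subunit of the single-strand DNA binding protein, act in DNA replication, and Stip1 is a co-chaperone. All 5 were chosen for this likeness, so their sharing the order of the groups is no result.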

How the data were processed

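The authors sequenced poly(A) RNA in 9 dUTP strand-specific paired-end libraries (3 per group) and deposited 1 table with whole-number read counts per gene and FPKM per library. Its 18 value columns were matched to libraries by name, with the model group of the headers being RANKL per the paper. Per the labels the build is mm10; the aligner, counting tool, annotation and strand setting are not given in the sources used here. The deposited FPKM values were recomputed from count, exonic length and total count for 100% of values. Starts and ends in the table match GRCm38 for 0 of the 10 members although the span lengths match for 10 of 10, so they are printed as deposited, with the build not settled, and RefSeq windows keep their own GRCm38.p6 positions.

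Counts were tested with edgeR 4.0.16 in R 4.3.3 (quasi-likelihood F-test, TMM, all 9 libraries in 1 fit, Benjamini-Hochberg over the 11995 genes that reached FPKM 1 in 3 or more libraries). The fit code was run on simulated counts with the same dispersion for all genes and larger changes than most of those reported here. It thus does not show how well small changes are found. Alternatives were DESeq2 1.42.0, limma 3.58.1 on log2(FPKM + 1) and log2(FPKM + 0.1), RLE factors, total counts, no filter and 6 libraries only. A replicate block and leaving out each library were also run. Summing similar copies was chosen after seeing the data. These copies were found with BLAST+ 2.17.0 against GENCODE transcripts (at least 90% identity over 300 bases, FPKM of at least 1). Ratios were tested by exact permutation over libraries. The members and lists were chosen with earlier results of these data known. All 10 members, Cad and Umps are named, and list genes are named where a result turns on them. Also named are the 5 tested genes outside all lists that were most like the members' mean profile by Pearson correlation of log2(FPKM + 1). The genes named within the lists were chosen after their values were seen.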

Additional observations from a re-analysis of the deposited data

How the results depend on the processing

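The count of 7 members higher with UD in RANKL cells stayed within 1.5 times its value, and 0 members were lower, under every alternative run. The calls in RANKL against control depended on scaling: with total counts, limma with pseudocount 1 and limma with pseudocount 0.1, 0 members were higher instead of 3, and with total counts 5 were lower instead of 3 (these 3 leave out the TMM factors). The 1 member lower in UD + RANKL against control (Prps1) became 0 without the FPKM filter, with RLE size factors, in DESeq2, in both limma fits and with its copy summed, and was 0 to 1 when 1 library was left out. With Prps1l3 summed, the change over control was reversed in sign for the pair, at 0.058. The log2 ratio of Prps2 to the pair was -0.53 in RANKL and -0.55 in UD + RANKL against control. The other reversals were of values near 0 that were not called: Impdh1 in RANKL against control was 0.046 without control replicate 3 and 0.006 without RANKL replicate 1 (range over single libraries left out -0.067 to 0.046), and with UD in RANKL cells it was 0.028 by total counts and 0.026 and 0.028 by limma with pseudocounts of 1 and 0.1. In UD + RANKL against control, Pfas was -0.049 without control replicate 3 and -0.034 without UD + RANKL replicate 2 (range -0.049 to 0.058), Paics was -0.0028 without control replicate 2 and -0.00049 without UD + RANKL replicate 3 (range -0.0028 to 0.028), and Adsl was 0.012 without control replicate 3 (range -0.102 to 0.012). Replicate numbers showed at most a weak pairing of the libraries, which was not tested. Correlations of deviations were -0.02 to 0.10 in the 9 same-number pairs and -0.10 to 0.05 in pairs of different numbers. A library's own number was the best match in 11 of 18 cases, each with 3 numbers to match. With a replicate block, 7 members were higher and 0 lower with UD, 2347 genes were higher and 2518 lower instead of 2233 and 2418, and no call of a member changed. With 3 libraries per group, the exact test of a ratio between a pair of groups cannot go below 0.1.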
